A study of Mus musculus with 12 samples.

Results

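The peaks described are those of N4-acetylcytidine (ac4C) pull-down whose centre lies in a 5′ untranslated region (5′ UTR), the stretch of a messenger RNA between its first base and the start codon. A peak was taken when the authors' annotation placed its centre in a 5′ UTR or first exon of at least 1 gene and in the 3′ UTR or last exon of no gene. The label for a first exon that this rule names occurs 0 times in the tables, so every peak chosen carries the 5′ UTR label, and peaks labelled exon 1 were not taken. The rule gave 138 of the 4753 peaks in 6 lists, and 82 of 2808 regions once peaks that overlap by 1 base or more between lists were merged.

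Mouse peritoneal macrophages, phagocytes of the abdominal cavity, were cultured with interferon-γ (IFN-γ), the cytokine of classical macrophage activation, for 0, 24 or 48 h. RNA that an ac4C pull-down retained (RIP-seq) and total RNA were sequenced in 2 samples of each kind at each time, 12 samples in all, and the results rest on 2 deposited peak lists of the pull-down per time. The labels give the IFN-γ treatment to all samples, those at 0 h included, and give no strain, age or genotype. No untreated culture at 24 h or 48 h is among the groups, so the cytokine and the time in culture cannot be told apart. The names of the lists give the hour and a number, 1 or 2, which no label ties to a sample, animal or culture, so list 1 and list 2 have no order. Whether the samples of a time come from different animals or cultures is not labelled. The p-values cover only how these lists scatter, and that scatter may be technical.

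As background, ac4C is a cytidine carrying an acetyl group, placed on ribosomal, transfer and messenger RNA by the acetyltransferase NAT10. In messenger RNA the mark has been tied to translation and stability, and its position in a transcript matters: in the coding region it has been linked to faster decoding, and near the start codon of a 5′ UTR to where ribosomes begin. The 5′ UTR is scanned by the small ribosomal subunit, and its structure and base content set how readily a protein is made.

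The starts of 7 genes are shown as examples. Their 5′ UTR peaks recur over times or are present at 1 time only, and the peak centre lies within 400 bases of the start. Other genes that meet this are not shown. Each line gives bases 21 to 50 of the gene from RefSeq (GRCm38.p6), 5′ to 3′, with cytidines, the base that ac4C modifies, in capitals. The peaks themselves are mapped on another build, GRCm39, so the letters show how these messages begin and not the bases under a peak.
Spop: gaCgtgCtgaCgaCaggaCgCCCaggCCgg
Rbbp7: gCCtgCgCtCagCtgCCtgggCgggCtgag
Stat6: CCggggCagCCagggtttaCagtgaagaag
Plk2: aCgtCagaCtagagagtagggagagagaCt
Stk11: aCaagatggCggCggCgtgtCggtCtagga
Wnk1: gCggaCgCgCtCCttCtgCtCggCtattCC
Aars: CgCtCtgattggatggtgaggtaCggCtCt
In GRCm38.p6 these windows are chr11:95414103-95414132 (+), chrX:162760392-162760421 (+), chr10:127643006-127643035 (+), chr13:110395064-110395093 (+), chr10:80115815-80115844 (+), chr6:120038606-120038635 (-) and chr8:111033862-111033891 (+). Wnk1 has 12 cytidines in 30 bases, Spop and Rbbp7 have 10 each, and Plk2 has 4. Dennd4c, among the genes not shown, has 1. Over bases 1 to 50, the 61 of 79 protein-coding genes with a 5′ UTR peak that the table held had a median cytidine share of 26% (quartiles 21% and 32%). The median was 30% over 1395 other genes with a peak and 28% over all 17492 protein-coding genes of the table. The differences between these medians were not tested.

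The 5′ UTR peaks were a small share of each list. At 0 h list 1 held 27 of them among 1151 peaks and list 2 held 28 among 946. At 24 h the lists held 26 of 725 and 20 of 646, and at 48 h 24 of 674 and 13 of 611. Both 0 h lists therefore had more 5′ UTR peaks than any of the 4 later lists, and the lists of 48 h differed most from each other. As shares of all peaks these were 2.35% and 2.96% in the 0 h lists, 3.59% and 3.10% in those of 24 h, and 3.56% and 2.13% in those of 48 h. The exact binomial 95% intervals of the shares, which cover counting error only, ran from 1.14% to 5.25% over the lists and overlapped between all of them. Peaks centred in a 3′ UTR were far more common, 2347 of 4753.

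**Figure D1:**
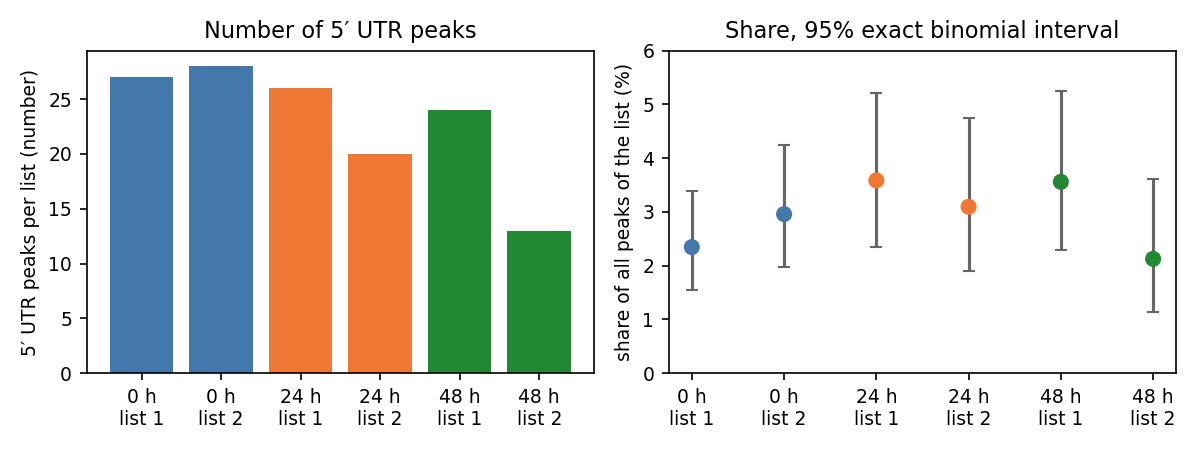
Left, the number of 5′ UTR peaks in each of the 6 peak lists, coloured by hours with IFN-γ; right, their share of all peaks in the list in percent, with exact binomial 95% intervals. The number was 27 and 28 at 0 h and 13 to 26 later, while the shares lay between 2.13% and 3.59% with intervals that overlap.

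Between times, the mean number of 5′ UTR peaks was 27.5 ± 0.707 (SD, n = 2 lists) at 0 h, 23.0 ± 4.24 at 24 h and 18.5 ± 7.78 at 48 h. Against 0 h, the log2 ratio of these means was -0.26 at 24 h (exact permutation p = 0.333, two-sided) and -0.57 at 48 h (exact permutation p = 0.333). For the 4 later lists against the 2 lists of 0 h it was -0.41 (exact permutation p = 0.2). These tests were run on the difference of the mean numbers, not on their log2 ratio. The share of peaks differed with the opposite sign, by 0.688 percentage points at 24 h (exact permutation p = 0.333), 0.191 at 48 h (exact permutation p = 1) and 0.440 for the later lists together (exact permutation p = 0.6). None of the 6 tests passed after Benjamini-Hochberg adjustment, with exact permutation values of 0.5 to 1. The smallest p that 2 lists against 2 can give is 0.333, and 0.0667 for 2 against 4, so these comparisons could not have reached 0.05.

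The control library was not named, and what the peak caller took as background is called input here. The depth of the input moved with time. Its relative depth, recovered from the deposited fold and p, was 100% and 91.4% of the deepest list at 0 h, 73.7% and 80.8% at 24 h and, at 48 h, 57.2% and 44.5%. Pull-down depth on the same basis was 91.5% and 78.0%, 100% and 98.0%, and 78.0% and 68.6% of the deepest list, highest at 24 h. With input coverage scaled to the shallowest list, the numbers became 22 and 21 at 0 h, 21 and 13 at 24 h and, at 48 h, 23 and 13. In that form the 0 h lists overlapped the later ones. With the 611 peaks of smallest p in each list, the numbers were 16 and 16, 23 and 19, and 22 and 13, and the log2 ratios to 0 h turned to 0.39 at 24 h and 0.13 at 48 h. The larger raw number at 0 h was thus not seen at equal list length. A missing peak gives no level, and in bulk RNA fewer cells of a type and less RNA per cell cannot be told apart.

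Most 5′ UTR regions lay near the start of their gene. The rule itself favours this position, since it takes peaks by their 5′ UTR label, and no distances of other peaks are given here. For 73 of the 82 regions the tables gave a distance from the start of the gene itself, and the median distance of the peak centre was 296 bases, from 62 to 27893. Within 400 bases of the start lay 47 regions (64.4%), 14 lay beyond that but within 2000 bases and 12 farther away. Distances run along the genome and include introns. Among the distant regions were Inhba at 5519 bases, Prkar1a at 4445 and Garre1 at 27893. Both ends of the peak lay in the 5′ UTR in 36 regions, and in 21 the peak ran from the 5′ UTR into a coding or other exon. An intron lay at either end in 19 regions, 5 of them with an intron at both ends, such as Prkar1a and Dennd4a. Such peaks cannot be assigned to spliced or unspliced RNA from the lists.

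**Figure D2:**
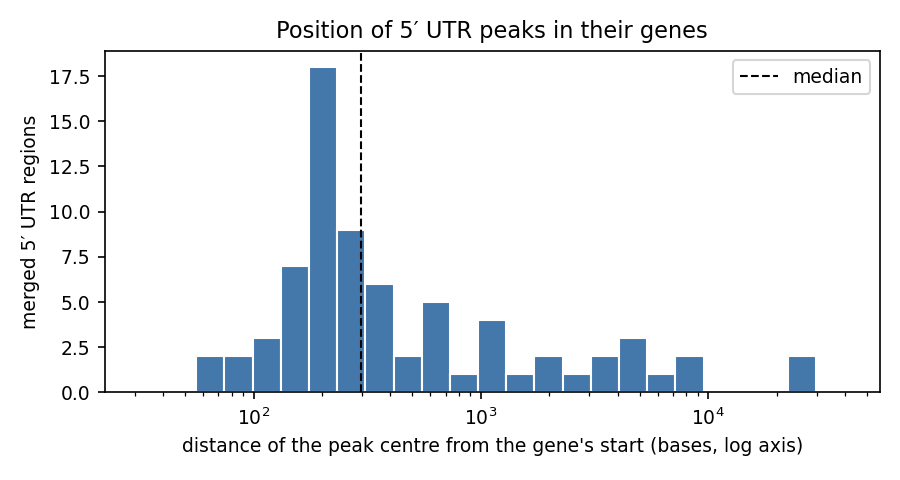
Distance of the peak centre from the start of the gene in bases, on a log axis, for the 73 merged 5′ UTR regions with such a distance; bars count regions and the dashed line is the median of 296 bases. Most regions lie between 100 and 400 bases, with a smaller number beyond 2000.

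The regions belonged to 82 genes, of which 80 matched a RefSeq entry and 79 were protein coding. A single gene was named at 72 regions and more than 1 at 10. Where genes overlap, as at Inhba and B230303A05Rik or Ctnnd1 and Gm28635, the source of the reads cannot be told apart, since the labels and headers do not say whether reads were counted by strand. Of the 82 regions, 43 lay on a gene with a second region elsewhere, and in 35 that was in the 3′ UTR. The matching shares of all merged regions are not given here, so these counts show nothing particular to 5′ UTRs. Polr2a, Btg1, Marcks, Jund and Gsk3b had a peak on other regions of the gene in all 6 lists, 3′ UTR or last exon in each case.

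Within a list, 31.7% of 5′ UTR peaks on average (SD 12.3, n = 6 lists) lay on a gene with a second peak in that list. The matching share was 25.0% of the other peaks that lay on a gene (SD 4.32), with peaks outside genes left out. The lists ranged from 16.7% to 51.9% for 5′ UTR peaks and from 21.1% to 33.4% for the others. The difference of 6.75 percentage points was positive in 5 of 6 lists (exact sign-flip permutation p = 0.156, two-sided; adjusted 0.188).

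No difference in strength between 5′ UTR peaks and other peaks passed the test over the 6 lists. The authors' fold enrichment compares pull-down signal at a summit with what the peak caller took as background. Depth differs between lists, so folds were compared within a list only. Folds printed for different lists or times do not measure a change. For 5′ UTR peaks the medians of the fold were 4.01 and 3.55 at 0 h, 3.76 and 2.93 at 24 h and, at 48 h, 3.40 and 3.24. For all other peaks the medians were 2.93 and 2.99, 3.00 and 2.97, and 3.28 and 3.35. The 5′ UTR peaks had the higher median in 4 lists, by the widest margin in 0 h list 1, and the lower in 24 h list 2 and 48 h list 2. The mean difference in log2 fold was 0.17 (SD 0.203, n = 6 lists; exact sign-flip permutation p = 0.188, adjusted 0.188). Single 5′ UTR peaks ranged from a fold of 1.62 to 10.5.

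The background coverage that the fold divides by, called input coverage here, was at or below that of other peaks in every list. Its median was 3 fragments in both 0 h lists, 2 and 2.5 at 24 h, and 3 in both lists of 48 h. Other peaks had medians of 6 at 0 h, 3.77 and 4 at 24 h, and 3 at 48 h. So the 5′ UTR peaks lay lower in all 4 lists of 0 h and 24 h and at the same coverage in both lists of 48 h (mean log2 difference -0.60, SD 0.480; exact sign-flip permutation p = 0.125, adjusted 0.188). Pull-down fragments at the summit had medians of 24 to 53.5 at 5′ UTR peaks and 43 to 49 at others (mean log2 difference -0.31; exact sign-flip permutation p = 0.0938, adjusted 0.188). Median width was 233 to 260 bases against 235 to 273 (mean difference -13.4 bases; exact sign-flip permutation p = 0.125, adjusted 0.188). The median −log10 p was higher by 0.689 on average (exact sign-flip permutation p = 0.125, adjusted 0.188). With 6 lists the smallest p such a test allows is 0.0312, and none of the 6 measures passed 0.05.

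**Figure D3:**
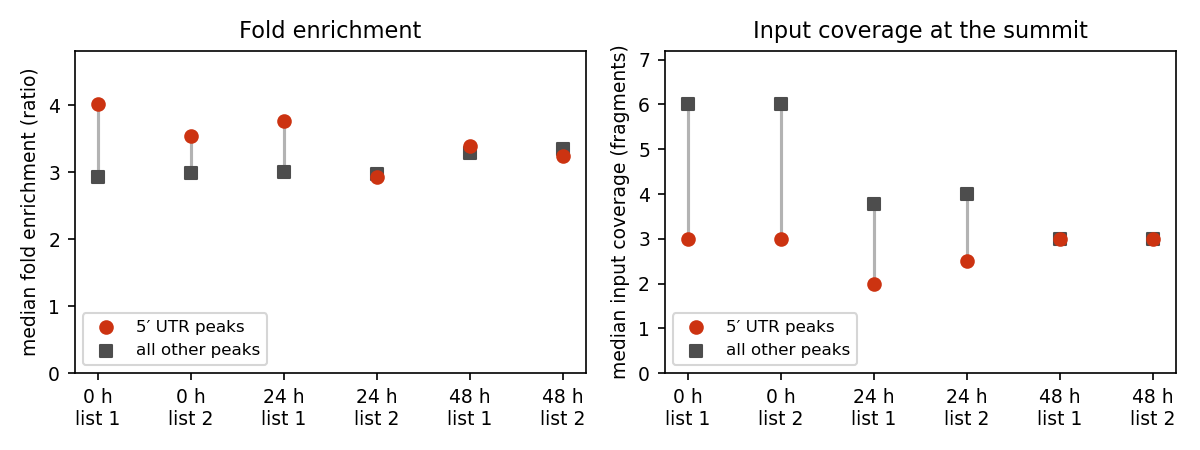
Median fold enrichment (left, ratio) and median input coverage at the summit (right, fragments) of 5′ UTR peaks (circles) and all other peaks (squares) in each of the 6 lists, joined by a line within a list. The fold of 5′ UTR peaks was higher in 4 lists and lower in 2; their input coverage was lower in the 4 lists of 0 h and 24 h and equal at 48 h.

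Of the 5′ UTR peaks, 16 of 27 and 14 of 28 had a q of 0.05 or less at 0 h, 14 of 26 and 8 of 20 at 24 h and, at 48 h, 13 of 24 and 8 of 13. As shares these were 59.3% and 50%, 53.8% and 40%, and 54.2% and 61.5%, beside 51.9% and 49.3%, 38.3% and 36.3%, and 40.5% and 36.1% of the other peaks of the same lists. The share was higher at 5′ UTR peaks in each of the 6 lists, a difference that was not tested. A q of 1 was given to 4 and 9 at 0 h, 6 and 12 at 24 h and, at 48 h, 8 and 5. These were 14.8% and 32.1%, 23.1% and 60%, and 33.3% and 38.5%, beside 25.3% and 26%, 39.8% and 44.9%, and 39.1% and 39.5% of the other peaks. The 5′ UTR peaks had the higher share in 0 h list 2 and 24 h list 2 and the lower share in the other 4 lists.

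A peak in 2 or more of the 6 lists was present at 31 of the 82 regions (37.8%), beside 36.8% of all merged regions, so recurrence was near the background. Of the 82, 51 had a peak in 1 list, 14 in 2, 9 in 3, 5 in 4, 2 in 5 and 1 in all 6. In 4 or more lists lay 9.76% of the 5′ UTR regions and 8.40% of the others, and a peak at every time was present at 11 regions (13.4%, against 9.54% of the others). Of the regions with a peak at 0 h, 11 of 45 (24.4%) had it in both lists of that time. At 24 h these were 8 of 39 (20.5%) and at 48 h 5 of 34 (14.7%). The matching shares of all other regions were 25.5%, 16.5% and 17.4%. Lists of the same hour therefore shared a minority of their 5′ UTR peaks, and most regions had a peak in a single list.

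**Figure D4:**
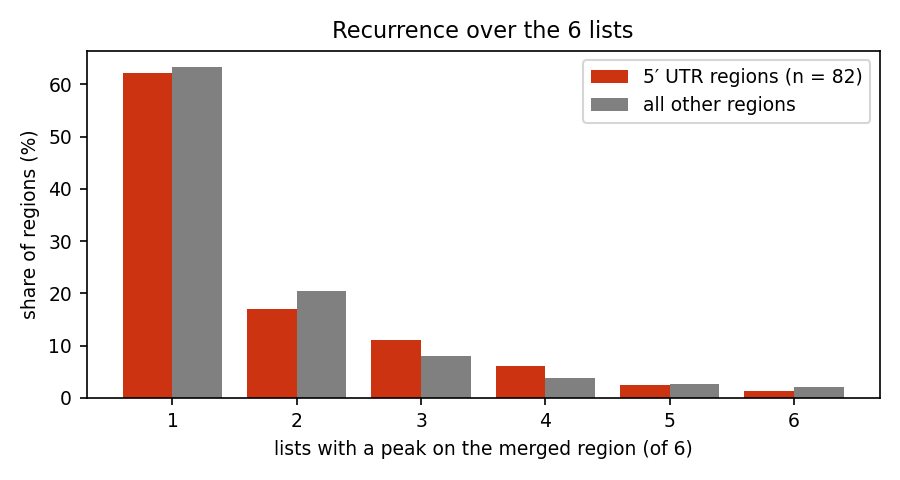
Share of merged regions (percent) by the number of lists with a peak on the region, from 1 to 6, for the 82 5′ UTR regions and all other regions. In each, most regions have a peak in 1 list only, 62.2% of the 5′ UTR regions and 63.3% of the others.

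Among genes of RNA binding and translation, Aars, the alanyl-tRNA synthetase, had a peak in both 24 h lists, with folds of 3.93 and 5.93, and in none at 0 h or 48 h (chr8:111760672-111760895 in 24 h list 2, GRCm39). The summits held 18 and 27 fragments, and the q was 0.05 or less in 1 of the 2 lists. Eif3b is a subunit of the initiation factor that joins the small ribosomal subunit. It had folds of 3.41 in 0 h list 2 and 3.09 in 48 h list 2, the second labelled exon 1. The q was above 0.05 in both lists. Eif4g2, an initiation factor used in cap-independent translation, had 3.48 in 48 h list 1 alone. Ythdf3, a reader of methylated adenosine, had 3.14 in 0 h list 2 alone, with a q of 1.

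Other members act in transcription and chromatin. Rbbp7, a histone-binding subunit of chromatin complexes, held the highest fold of any 5′ UTR peak, 10.5 in 48 h list 1 (chrX:161543473-161543703). Its other values were 5.87 in 0 h list 1 and 4.36 and 6.93 at 24 h, with no peak in 0 h list 2 or 48 h list 2. Each time thus had at least 1 list with a strong Rbbp7 peak, and 2 times had 1 list without it. Gtf2a1, a subunit of a general factor of RNA polymerase II, had 4.73 and 4.93 at 0 h, 6.48 in 24 h list 1 and 6.21 in 48 h list 2.

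Stat6, the transcription factor of interleukin-4 signalling and of alternative macrophage activation, had a peak in both lists of 0 h and of 24 h and in neither of 48 h (chr10:127478897-127479128 in 24 h list 1). At 0 h its fold was 2.23 and 2.58, and at 24 h 4.65 and 2.31. The q was 0.05 or less in 24 h list 1 only, so the other 3 peaks were weak. Input coverage at the summit was 11 and 7 fragments at 0 h and 2 and 4 at 24 h. No other region of Stat6 had a peak.

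Polr2a, the largest subunit of RNA polymerase II, had 3.37 and 4.41 at 0 h and 3.27 in 24 h list 1, the last labelled exon 1. Nabp1, a protein that binds single-stranded DNA, had 3.95 and 3.66 at 0 h and 2.86 in 24 h list 1, with no q of 0.05 or less. Neither had a peak at 48 h on its 5′ UTR region, while the last exon of Polr2a kept one in both 48 h lists. Nfe2l1, a transcription factor of proteasome genes, had 7.25 in 24 h list 1 and 3.64 in 48 h list 1 (chr11:96718727-96718994 in 24 h list 1) and none at 0 h. Nipbl, the cohesin loader, had 3.10 in 0 h list 1, 4.12 in 24 h list 1 and 3.95 in 48 h list 2, and its q was above 0.05 each time.

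Of genes in ubiquitin and transport pathways, Spop, a substrate adaptor of cullin ubiquitin ligases, had a peak in 5 lists (chr11:95304963-95305196 in 24 h list 1). The fold was 6.19 in 0 h list 2, 6.40 and 3.33 at 24 h, and 7.73 and 6.80 at 48 h, with none in 0 h list 1. The q was 0.05 or less in all 5. Dcun1d5, which promotes the neddylation of cullins, had 4.31 and 7.00 at 0 h and none later (chr9:7184579-7184822 in 0 h list 2). Xpo1, the nuclear export receptor, had 5.43 in 0 h list 1, 5.22 in 24 h list 2 and 3.26 in 48 h list 1, 1 list at each time.

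Among signalling genes were regions seen only at 0 h and regions seen only later. Inhba encodes the subunit of activin A, a secreted factor of the TGF-β family made by macrophages. Its 5′ UTR region (chr13:16191764-16192097 in 24 h list 1) had a peak in each of the 4 later lists and was missing from both lists of 0 h. Folds were 3.47 and 1.63 at 24 h and 2.12 and 3.24 at 48 h, and the q was 0.05 or less in 3 of them but 1 in 24 h list 2. The summits held 140 to 197 fragments, more than most 5′ UTR peaks. Another 3 Inhba regions, in the 3′ UTR, had peaks in 3 later lists and none at 0 h.

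Plk2, a polo-like kinase induced by stress and growth signals, had 5.45 and 3.53 at 0 h and no 5′ UTR peak in the 4 later lists (chr13:110531644-110531917 in 0 h list 1). Of the 4 regions seen in both 0 h lists and in no later list it had the highest −log10 p, 25.4 and 17.6, from summits of 135 and 141 fragments. Other regions of Plk2, in its last exon and another exon, still had a peak in both 24 h lists and in 48 h list 2. Stk11, the kinase that activates AMP-activated kinase, had 4.43 and 4.86 at 0 h and none later (chr10:79951729-79951979 in 0 h list 2), from summits of 18 and 16 fragments.

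Wnk1, a kinase that controls ion transport, had 5.05 and 2.71 at 0 h (chr6:120015341-120015589 in 0 h list 1), the second with a q of 1, and its other regions had peaks at 24 h and 48 h. Of these genes, Plk2 and Wnk1 thus kept a peak elsewhere, while Dcun1d5 and Stk11 had none on the gene after 0 h. Ptp4a2, a tyrosine phosphatase, had low folds of 2.30 in 0 h list 1, 1.75 in 24 h list 1, and 1.62 and 2.14 at 48 h. Pip5k1a, a lipid kinase, had 4.08 in 0 h list 2, 7.75 in 24 h list 2 and 3.31 in 48 h list 1.

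Vegfa, the endothelial growth factor, had 2.92 in 48 h list 1 alone, and other Vegfa regions had peaks in 24 h list 1 and both 48 h lists. Dennd4c, an exchange factor of Rab proteins, had 8.59 in 0 h list 1, the highest fold of a 5′ UTR peak at that time, and no peak in 0 h list 2. Gngt2, a G protein subunit, had 6.51 in 48 h list 1, and Prkar1a, the regulatory subunit of protein kinase A, had 4.01 in 0 h list 1, again in 1 list each.

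The actin-binding protein kinase C substrate Marcks had 2.65 and 3.31 at 0 h and 3.48 in 24 h list 1, the first labelled exon 1. Its 5′ UTR region had none at 48 h, while its 3′ UTR had a peak in all 6 lists. Ctnnd1, a catenin of cell junctions, had 6.73 in 0 h list 2 and 6.27 in 48 h list 1. Msn, the membrane-actin linker moesin, had 2.67 in 48 h list 1 with a q of 1.

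Dhrs3, a retinal reductase, had a peak in both 48 h lists only, with folds of 3.37 and 2.46 and a q above 0.05 in each. Hk2, the hexokinase of glycolysis, had 5.80 in 24 h list 1 and 3.91 in 48 h list 1. Btg1, an anti-proliferative factor, had 4.04 in 0 h list 2 and 3.50 in 48 h list 2. Each of the last 2 therefore had a peak in 1 list of each of 2 times.

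The uncharacterised 4933434E20Rik had 5.74 in 0 h list 1, 6.10 in 24 h list 2 and 4.63 in 48 h list 1. Cdipt, which makes phosphatidylinositol, had 6.81 in 48 h list 1, and Llph 7.01 in 48 h list 2.

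Another 5 regions had a peak in 2 or 3 lists. Snx33, a sorting nexin of membrane traffic, had 3.79 in 0 h list 2 and 3.93 and 3.47 at 24 h, and BC005537 had 1.89, 2.33 and 1.95 in 1 list of each time. Cox17, a copper chaperone of the respiratory chain, which overlaps Gm21987, had 2.91 in 0 h list 2 and 3.23 in 48 h list 2. Mpp5, a scaffold of cell polarity, had 2.98 in 24 h list 1 and 3.43 in 48 h list 1, and Nrp2, a neuropilin receptor, had 2.30 in 0 h list 1 and 1.88 in 24 h list 1. None of the peaks of Snx33, Cox17, Mpp5 and Nrp2 had a q of 0.05 or less.

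**Figure D5:**
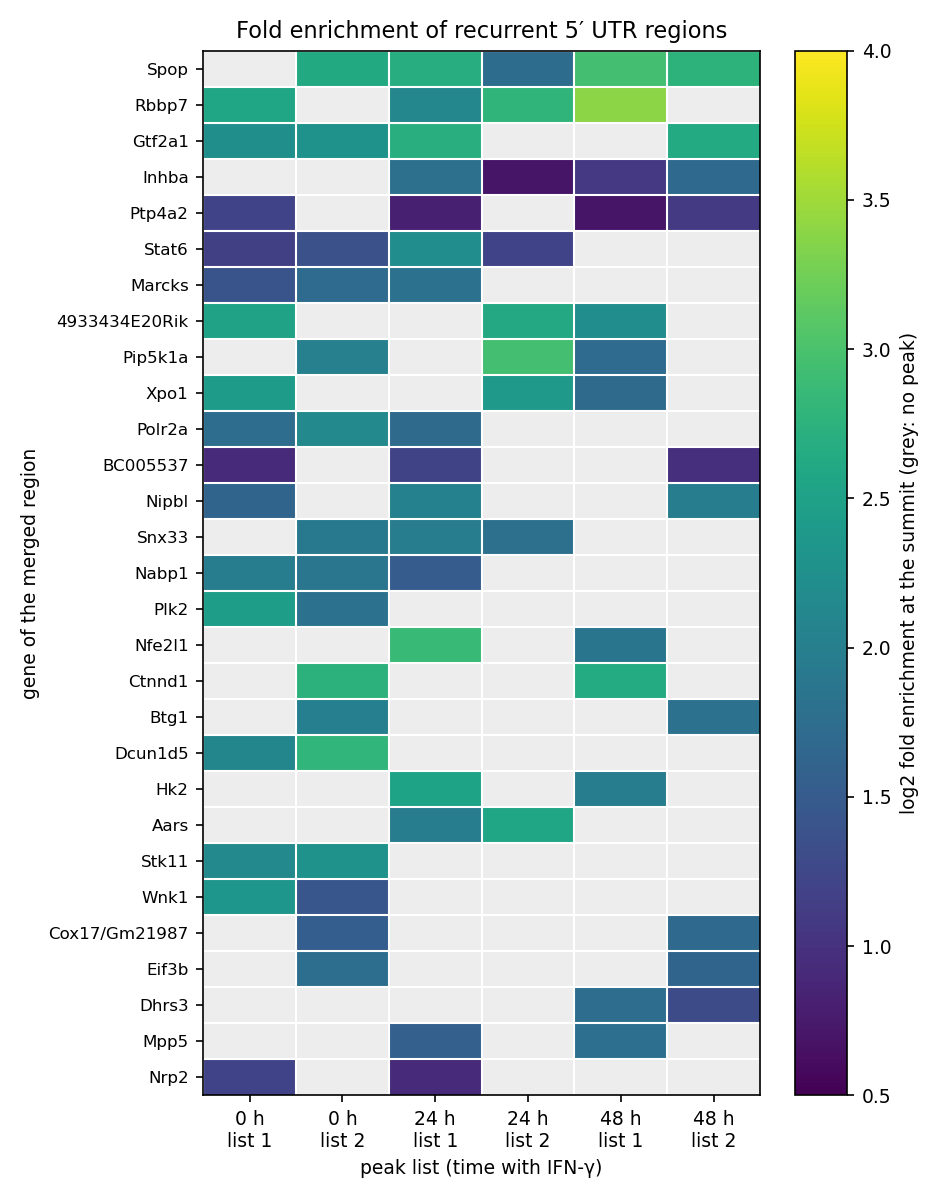
Log2 fold enrichment at the summit for 29 of the 31 5′ UTR regions with a peak in 2 or more of the 6 lists (columns, 2 per time), ordered by the number of lists and named by gene; grey marks no peak in that list. Spop is filled in 5 lists, Plk2, Dcun1d5, Stk11 and Wnk1 at 0 h only, and Inhba in the 4 later lists only.

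A region was called lost when both 0 h lists and neither list of the later time had a peak on it, and gained in the reverse case. At 24 h 4 of 67 regions with a peak at either time were lost (5.97%), beside 8.73% of all merged regions: Plk2, Dcun1d5, Stk11 and Wnk1. Gained were 2 of 67 (2.99%, beside 1.83%), Inhba and Aars. At 48 h 8 of 64 were lost (12.5%, beside 8.55%), the same 4 with Stat6, Marcks, Polr2a and Nabp1. Gained at 48 h were 2 of 64 (3.12%, beside 2.39%), Inhba and Dhrs3. Lost at both times were 4 of 82 (4.88%, beside 4.99%) and gained at both 1 of 82, Inhba (1.22%, beside 0.249%). The 24 h and 48 h comparisons share the 0 h lists. Each count rests on 1 to 8 regions and was not tested against the others, so nothing particular to 5′ UTRs can be read from it.

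The counts were also taken with each list left out. The rule then asks for a peak, or for none, in only 1 list of that time. That is looser, so higher counts follow from it and do not show how stable the calls are. Without 0 h list 1, 18 regions were lost at 24 h, 19 at 48 h and 14 at both, and without 0 h list 2 these were 14, 19 and 14. Without 24 h list 1, 8 were lost at 24 h and 7 at both. Gained at 24 h were 11 without 24 h list 1, 13 without 24 h list 2 and 4 without 0 h list 2. Gained at 48 h were 5 without 48 h list 1 and 16 without 48 h list 2, and 2 were gained at both times without 0 h list 2. The matching shares of all merged regions with a list left out are not given here. Nothing particular to 5′ UTRs can therefore be read from these counts. With input coverage matched, Inhba was left with 3 lists, and 0 regions were gained at both times.

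Counting any list of a time, 24 regions (29.3%, beside 34.2% of all merged regions) had a peak at 0 h only, 18 (22.0%, beside 19.6%) at 24 h only and 15 (18.3%, beside 16.4%) at 48 h only. No peak at 0 h was found on 37 (45.1%, beside 40.8%). Among those in 1 list, the fold ran from 1.97 for Gabarap, an autophagy protein, in 48 h list 1 to 8.59 for Dennd4c. Ptges3, a co-chaperone, had 6.40 and Arl6ip4 5.96 in 0 h list 1, and Pitpna, a lipid transfer protein, 5.13 in 0 h list 2. Shoc2, a scaffold of Ras signalling, had 4.24 in 24 h list 1. Jund, an AP-1 transcription factor, had 5.43 in 48 h list 2. All 5 of these had a q of 0.05 or less in their list.

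Egr2, an early growth response factor, had 2.28 and Epas1, a hypoxia-inducible factor, 2.04 in 0 h list 1. Fosl2, a partner of Jun proteins, had 2.58 in 48 h list 1, and Hexim1, an inhibitor of transcription elongation, 2.56 in 24 h list 1. Each had a q of 1 and another region in its 3′ UTR. Gpbp1 alone had 2 separate 5′ UTR regions, both in 24 h list 2, with folds of 2.90 and 2.38.

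A 5′ UTR peak was present on 82 of 2060 genes with any peak (3.98%), and on 6 of the 101 such genes in 13 lists of gene groups (5.94%). Of 38 interferon genes 12 had any peak and 1 a 5′ UTR peak, Ifi209, a member of the interferon-inducible p200 family, with a fold of 5.96 in 24 h list 1. Of 16 genes of alternative activation 9 had any peak and 2 a 5′ UTR peak, Stat6 and Vegfa. In translation (8 of 12 with any peak), RNA modification (4 of 16) and cytoskeleton (6 of 13), 1 gene each had a 5′ UTR peak: Eif4g2, Ythdf3 and Msn. The translation group is not complete: Eif3b, Eif2s1 and Aars lie outside it, and each carried a 5′ UTR peak. That of Eif2s1 came from 0 h list 2 alone (fold 2.82, q of 1).

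No 5′ UTR peak lay on the genes of antigen presentation (7 of 17 with any peak), inflammation (13 of 31), chaperones (6 of 14), splicing (11 of 14), lysosome (6 of 16) or iron and redox (3 of 8). Ribosomal proteins (13 of 84) and long noncoding genes (3 of 6) had none either. A 5′ UTR peak lay on 3.98% of all genes with a peak, so none may be found in groups this small. The absences were not tested and show nothing particular to these groups. Nfkbia of the inflammation group had a peak labelled exon 1, which the rule does not take, with a fold of 5.15 in 24 h list 1. Of 10 macrophage markers, Itgam and Lyz2 had a peak, neither in the 5′ UTR. Of 31 markers of B, T and NK, neutrophil, mast, mesothelial and dendritic cells, Wt1 of mesothelium had 1. Peaks do not measure expression, so the labelled cell type could not be checked in this way.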

How the data were processed

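ac4C RIP-seq and total RNA-seq were done on the macrophages; 6 peak lists of the pull-down were used, and total RNA was not analysed here. The submitters' processing notes name BWA 0.7.12, MACS2 2.1.0 and GRCm39; tool roles, tool settings and the control library were not given in the sources used here. Because BWA is not a splice-aware aligner, fragments over an exon junction may be lost, which bears on peaks at exon ends. In the deposited tables, fold enrichment is the authors' ratio at the summit, and p and q are −log10 values, per the file headers. Deposited values of −log10 p begin at 2.31 to 2.33. Lists are not pooled over a time.

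A peak was 1 chromosome, start and end, with its best summit. Starts are printed as deposited, and may be off by 1 base. Peaks that overlap by 1 base or more between lists became 1 merged region, which counted as present in a list when any peak of that list lay on it, whatever its label. Pull-down fragments and input coverage were recovered from fold and p with 1 factor per list (0.259 to 0.468), within 0.005 of −log10 p, for 99.9% to 100% of summits. The lowest input coverage served as relative depth.

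Numbers were compared by exact permutation over lists, and 5′ UTR with other peaks by exact sign flips over the 6 lists, two-sided, with Benjamini-Hochberg adjustment over 6 tests each; methods were tested on simulated data. Python 3.11.15, pandas 2.3.3 and scipy 1.17.1 were used. The members, lists and tests were chosen with earlier results of these data known. Named regions were the first 12 by number of lists and then −log10 p, all lost or gained, the 10 strongest in 1 or 2 lists, and members of the gene groups; other regions in the text were named after their values were seen, and 2 recurrent regions are not reported here by name. Results were recomputed with peaks limited to a q of 0.05 or to a fold of 4, at equal list length, matched input coverage, other merging rules, each list left out and, added after seeing the data, exon 1 peaks included or the list number as a block.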

Additional observations from a re-analysis of the deposited data

How the results depend on the processing

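Restricting peaks to a q of 0.05 or less left 0 regions gained at 24 h, 5 lost at 48 h, 1 gained at 48 h and 0 gained at both, and turned the difference in −log10 p to -0.113. At a fold of 4 or more the difference in share from 0 h turned to -2.61 percentage points at 48 h and -1.23 over later lists. That setting left 2 regions lost at 24 h, 0 gained at 24 h, 2 lost at 48 h, 0 gained at 48 h, 2 lost at both and 0 gained at both. It put 25.7% of regions in 2 or more lists, and turned the differences in log2 fragments to 0.15 and in second peaks to -0.856 percentage points. At equal list length the log2 ratios of numbers to 0 h turned to 0.39 at 24 h, 0.13 at 48 h and 0.27 over later lists, with 2 regions lost at 24 h, 4 gained at 24 h, 4 lost at 48 h and 2 lost at both. Matched input coverage left 0 gained at both. Among peaks with a q of 0.05 or less, 5′ UTR peaks differed from others by 0.38 in log2 fold and -1.34 in log2 input coverage. At a fold of 4 or more they differed by 0.27 in log2 fold and 1.54 in −log10 p. For each of these differences the exact sign-flip permutation p was 0.0312, the smallest that 6 lists allow, and 0.0938 after adjustment. The counts of lost and gained regions and the share in 2 or more lists had no test. The matching values of all merged regions at these settings are not given here. Peaks of every kind fell under the limits: 0 h list 1 held 1151 peaks in all and 223 at a fold of 4 or more. Nothing particular to 5′ UTRs can therefore be read from these counts. None of the tested differences passed 0.05 after adjustment, and the cause of the changes was not tested.

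Leaving out each list in turn gave 4 to 18 regions lost and 2 to 13 gained at 24 h, 8 to 19 lost and 2 to 16 gained at 48 h, and 4 to 14 lost and 1 to 2 gained at both. With 1 list of a time left the rule for lost and gained is looser, so the higher counts follow from it. The difference in share at 48 h ran from -0.525 to 0.908 percentage points, and was -0.116 without 0 h list 1 and -0.525 without 48 h list 1. The other results kept their direction: log2 ratios of -0.46 to -0.08 at 24 h, -1.08 to -0.20 at 48 h and -0.53 to -0.24 over later lists; shares of 0.381 to 0.995 points at 24 h and 0.133 to 0.762 over later lists; and 32.4% to 41.1% of regions in 2 or more lists. Differences from other peaks ran from 0.11 to 0.21 in log2 fold, 0.443 to 0.940 in −log10 p, -17.2 to -10.4 bases in width, -0.72 to -0.52 in log2 input coverage, -0.41 to -0.20 in log2 fragments and 4.41 to 8.99 points in second peaks.

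Taking the 5′ UTR label alone changed nothing, since no first-exon label occurs. Merging 5′ UTR peaks alone, asking for 50% overlap of the shorter peak and adding exon 1 peaks kept the direction of each result they were run on, with counts within 1.5 times. Of the 33 named regions, the number of lists stayed within 1.5 times for 28 at equal list length, 24 at the q limit, 15 at the fold limit and 32 at matched input coverage. The lists share the numbers 1 and 2 at each time, but no label says that a number pairs lists. With the number as a block, added after seeing the data, the log2 ratios of numbers to 0 h were -0.27 at 24 h, -0.64 at 48 h and -0.45 over later lists, and the shares differed by 0.688, 0.191 and 0.440 points. The exact sign-flip permutation p was 0.5 or 1, and 0.5 is the smallest that 2 numbers allow. Lost and gained regions were not recounted with the block. Summits with 16 to 30 fragments, such as those of Stk11, Aars and Nabp1, give little precision.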

Other observations

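Peaks next to the ones described, which carry an exon 1 label, numbered 49, on 39 merged regions, 3 of them shared with 5′ UTR regions (Polr2a, Marcks and Eif3b). Of the 36 exon 1 regions with no 5′ UTR peak, 22.2% had a peak in 2 or more lists, against 36.8% of all regions; this was not tested. The most frequent was Slc15a3, a lysosomal peptide transporter, with a peak in 4 lists, both lists of 0 h and 1 each at 24 h and 48 h, and folds of 2.13 to 2.51. Cdkn1c, an inhibitor of the cell cycle, had an exon 1 peak in both 0 h lists only, with folds of 3.06 and 4.33, and Gm44732 overlaps it.

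A further 12 peaks on 8 regions had their centre in the 5′ UTR of 1 gene or transcript and in the 3′ UTR or last exon of another, and were left out. Azin1, a regulator of polyamine synthesis, overlaps Gm49077 there and had a peak in 3 lists, 1 at each time, with folds of 2.87 to 7.87. Mkks had a peak in both 24 h lists only, with folds of 3.03 and 3.36. Rap2b with B430305J03Rik had 2.43 in 0 h list 1 and 2.76 in 24 h list 2. The other 5 regions had a peak in 1 list each. These regions and genes were chosen after their values were seen.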
